A study of Mus musculus with 8 samples.

Results

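The collagen genes were taken as every gene whose symbol is Col, a number, the letter a and a number, and that had a unique molecular identifier (UMI, the tag that marks 1 captured RNA molecule) in at least 5 barcodes with 200 or more detected genes. Of 27998 genes in the matrices, 44 symbols had this form and 38 were found often enough. Col9a1, Col19a1, Col24a1, Col10a1, Col6a4 and Col2a1 fell below the limit, the nearest being Col24a1 with 4 barcodes. The members just above it were Col11a1 with 8 barcodes and Col6a5 with 9. By the kind of structure their chains build, the 38 members were 9 fibrillar chains, 6 basement membrane chains, 5 beaded filament chains, 7 chains of fibril-associated collagens (FACIT), 2 multiplexins, 2 network-forming chains, 4 transmembrane chains, the anchoring chain Col7a1, and Col26a1 and Col28a1, which belong to none of these families.

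Collagens are the main structural proteins of the extracellular matrix. Each molecule is a helix wound from alpha chains, which are products of the same gene or of different genes. Type I and type III collagens form the fibrils that carry tension in the myocardium, type IV collagen forms the sheet of basement membranes around capillaries, muscle cells and nerves, and type VI collagen forms fine filaments between them. Cardiac fibroblasts are known as the main makers of fibrillar collagen, whereas mural and endothelial cells are known for making basement membrane.

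Male C57BL/6 mice of 10 to 12 weeks had the left anterior descending coronary artery tied for 30 min and released (ischemia-reperfusion), or a sham operation, and left ventricular cells were sequenced with a droplet kit that reads the 3′ end of transcripts. The sample records give 4 samples at 0 h and 4 at 6 h, each pooled from 3 hearts, but each condition has 1 matrix in which no barcode names a sample. The conditions are therefore 1 library each, called the 0 h and the 6 h matrix here, no test between them was possible, and every interval below is a 95% interval that covers counting error alone. The methods describe collection 6 h after either operation, and it is not known from these sources if the hearts titled 0 h had the sham operation.

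The start regions of 4 members are printed, chosen for their place in the levels described below. Col3a1 and Col1a2 were the most abundant fibrillar chains of fibroblasts, Col4a2 stands for the pair Col4a1 and Col4a2, which lie head to head on chromosome 8 and share 22 bases, and Col8a1 is the network chain whose ratio between the matrices moved with depth. Each run holds 250 bases before and 50 bases from the RefSeq start (build GRCm38.p6), at chr1:45311288-45311587 (plus strand), chr6:4505368-4505667 (plus strand), chr8:11312555-11312854 (plus strand) and chr16:57754688-57754987 (minus strand). The Col4a2 window also holds the annotated start of Col4a1, at base 11312826 in GENCODE, which is read from the other strand. Capitals mark the TATA box (spelled TATAAA), the box with the letters CCAAT, the GC box (spelled GGGCGG) and the AP-1 site (spelled TGANTCA), each searched on both strands, and letters shared by overlapping matches are capitalized once.
Col3a1: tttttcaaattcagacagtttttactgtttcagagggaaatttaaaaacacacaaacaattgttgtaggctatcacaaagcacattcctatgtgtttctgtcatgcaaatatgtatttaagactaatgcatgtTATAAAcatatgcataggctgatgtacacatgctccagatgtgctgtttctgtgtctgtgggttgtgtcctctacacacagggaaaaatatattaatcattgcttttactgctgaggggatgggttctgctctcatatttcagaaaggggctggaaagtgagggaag
Col1a2: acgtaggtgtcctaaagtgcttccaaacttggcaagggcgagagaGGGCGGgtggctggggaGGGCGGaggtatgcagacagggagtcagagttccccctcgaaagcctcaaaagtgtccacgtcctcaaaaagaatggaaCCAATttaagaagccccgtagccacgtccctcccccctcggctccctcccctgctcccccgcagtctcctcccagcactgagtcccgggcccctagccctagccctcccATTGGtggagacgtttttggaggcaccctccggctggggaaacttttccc
Col4a2: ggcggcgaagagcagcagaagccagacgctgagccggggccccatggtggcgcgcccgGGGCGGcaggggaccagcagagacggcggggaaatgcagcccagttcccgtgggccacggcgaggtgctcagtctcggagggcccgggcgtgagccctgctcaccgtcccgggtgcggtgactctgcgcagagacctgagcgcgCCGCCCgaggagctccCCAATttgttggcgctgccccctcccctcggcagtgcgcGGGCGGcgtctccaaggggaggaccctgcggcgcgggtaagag
Col8a1: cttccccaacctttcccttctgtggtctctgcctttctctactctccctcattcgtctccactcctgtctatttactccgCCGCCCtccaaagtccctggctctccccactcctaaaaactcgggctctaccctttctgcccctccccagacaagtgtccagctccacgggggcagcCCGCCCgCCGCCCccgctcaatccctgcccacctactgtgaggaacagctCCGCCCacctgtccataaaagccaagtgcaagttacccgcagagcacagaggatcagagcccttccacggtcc
Col3a1 held 1 TATAAA and no other motif of the 4. Col1a2 held 2 CCAAT and 2 GC boxes, Col4a2 held 1 CCAAT and 3 GC boxes, and Col8a1 held 4 GC boxes. Of 27025 promoter windows, 14.2% held TATAAA, 37.9% CCAAT, 35.9% a GC box and 7.93% an AP-1 site, against 4, 11, 21 and 1 of the 30 members with a window. These matches are letters in a window and were not tied to the binding of a factor.

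Cells were assigned to a class when at least 3 of the 8 markers of that class had a UMI and that number led every other class by at least 2. No collagen gene was used as a marker. The 0 h matrix kept 11377 cells with a median of 4649 UMIs and the 6 h matrix 8260 cells with a median of 6636, at 200 or more genes and at most 30% mitochondrial UMIs, and 30 barcodes occurred in both matrices. The 10 leading genes of each class held its own markers and none of another class. Fibroblast-like cells numbered 3416 at 0 h and 1520 at 6 h, pericyte-like cells 597 and 103, smooth muscle-like cells 208 and 72, endothelial-like cells 276 and 103, Schwann-like cells 44 and 12, and leukocyte-like cells 6096 and 5973. No class was given to 716 cells (6.29%) at 0 h and 473 (5.73%) at 6 h, of which 228 and 150 held at least 3 fibroblast and 3 leukocyte markers, and 124 and 84 fibroblast-like cells sat exactly at the lead of 2. Fibroblast-like cells were far deeper at 6 h, with a median of 13636 UMIs against 5214.5, and 88.5% of them had over 2500 genes, the upper limit of the study's own filter, against 15.3% at 0 h.

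Collagen genes took a large share of the UMIs of fibroblast-like and Schwann-like cells. In fibroblast-like cells, the 38 genes together made up 8946 UMIs in every 1000000 (CPM) at 0 h and 7127 at 6 h. In Schwann-like cells they made up 6912 and 6652 CPM, in pericyte-like cells 3279 and 4099, in smooth muscle-like cells 1689 and 1904, and in endothelial-like cells 1638 and 2700. In leukocyte-like cells they made up 125.9 and 133.4 CPM, so that fibroblast-like cells stood 71.0-fold above leukocyte-like cells at 0 h and 53.4-fold at 6 h. The class rule set several of these totals. With classes from scaled scores, Schwann-like cells had 562 and 501 CPM, and with a stricter rule 6545 and 10000, so their order against fibroblast-like cells at 6 h is not fixed. Smooth muscle-like cells had 3335 CPM at 6 h with the stricter rule and 3493 with the scores. Leukocyte-like cells at 6 h had 62.5 CPM with the stricter rule, 65.5 with the scores and 80.4 with at most 2500 genes per cell. The median fibroblast-like cell spent 0.849% of its UMIs on collagen at 0 h and 0.658% at 6 h, and every fibroblast-like cell had at least 1 collagen UMI.

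**Figure D1:**
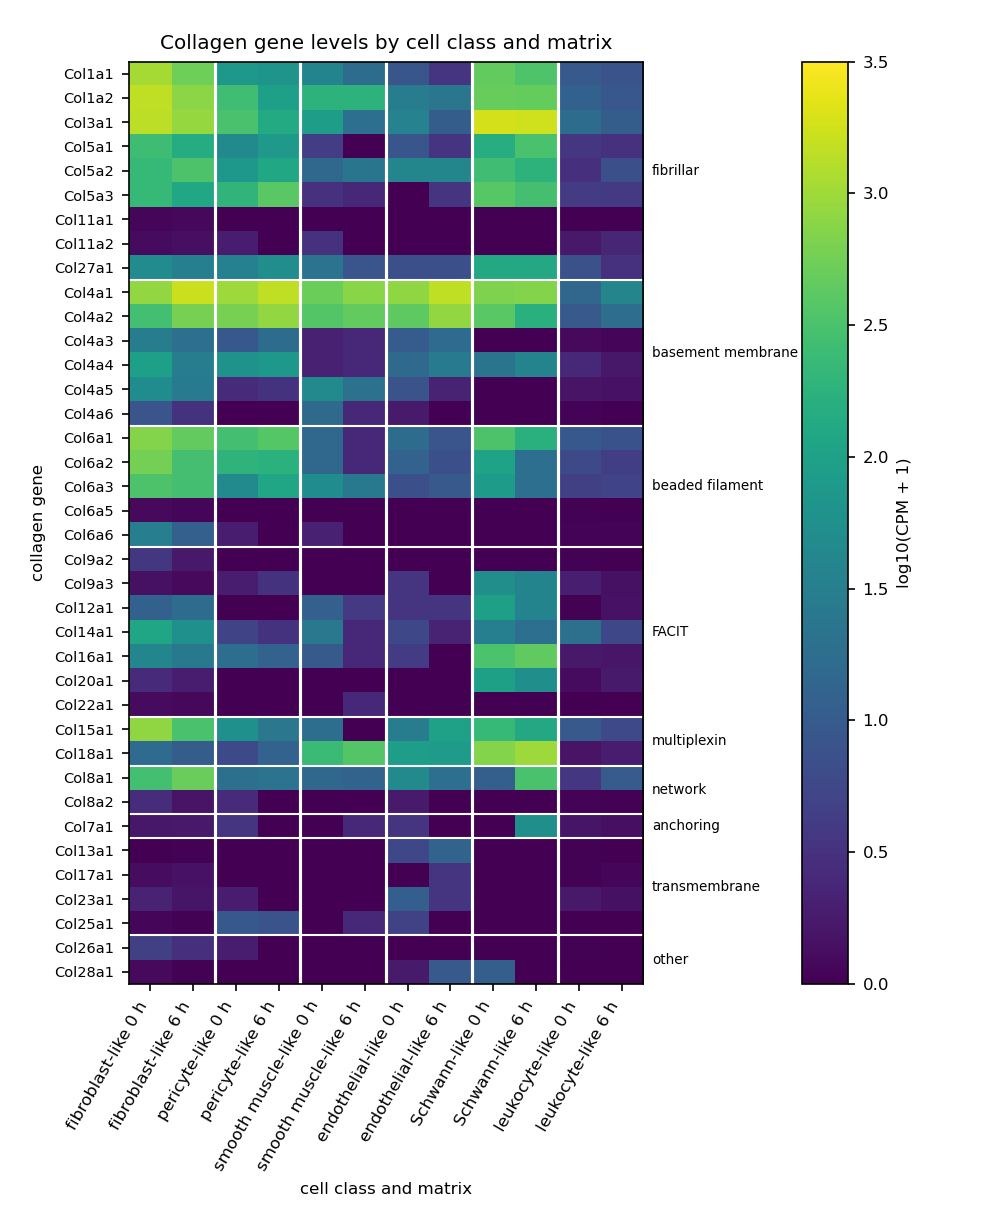
Level of each of the 38 collagen genes (rows, grouped by family) in 6 cell classes of the 0 h and 6 h matrices (columns), as log10(CPM + 1). The fibrillar chains Col1a1, Col1a2 and Col3a1 are brightest in fibroblast-like and Schwann-like cells. Col4a1 and Col4a2 are bright in every class but leukocyte-like cells, and the Schwann-like columns rest on 44 and 12 cells.

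Fibrillar chains were the largest family in fibroblast-like cells, with 52.3% of their collagen UMIs at 0 h and 39.6% at 6 h. Col1a2, a chain of type I collagen, stood at 1455 CPM at 0 h and 778.3 at 6 h, and its partner Col1a1 at 1053 and 534.6. Col3a1, the chain of type III collagen, stood at 1425 and 878.3 CPM. The beaded filament chain Col6a1 stood at 706.2 and 459.1 CPM, and the multiplexin Col15a1, found at the border between basement membrane and fibrils, at 817.2 and 307.3. Col4a1, the common chain of basement membranes, stood at 862.9 CPM at 0 h and, at 1654, was the most abundant collagen gene of these cells at 6 h. These CPM values are not per length, and UMIs read from the 3′ end do not scale with transcript length, but capture may differ between genes.

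In vascular cells the basement membrane pair led instead. Col4a1 stood at 979.1 and 1478 CPM in pericyte-like cells, 516.9 and 754.2 in smooth muscle-like cells, and 824.3 and 1464 in endothelial-like cells, for 0 h and 6 h in that order. Col4a2 stood at 601.9 and 848.3, 359.4 and 457.8, and 421.8 and 852.1 CPM in the same classes. Basement membrane chains thus held 78.0% of endothelial collagen UMIs at 0 h and 87.4% at 6 h, against 50.3% and 58.9% in pericyte-like cells and 55.6% and 64.9% in smooth muscle-like cells.

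Further chains followed in each vascular class, and several of them stood higher in fibroblast-like or Schwann-like cells. In pericyte-like cells the next genes were Col6a1 (283.1 and 380.4 CPM), Col5a3, a minor fibrillar chain (191.5 and 396.5 CPM), and Col3a1 (314.7 and 138.3 CPM). In smooth muscle-like cells the multiplexin Col18a1, the precursor of endostatin, followed at 245.4 and 370.4 CPM, then Col1a2 at 184.6 and 182.2 and Col3a1 at 87.96 and 17.78. In endothelial-like cells Col18a1 stood at 89.17 and 84.72 CPM, Col15a1 at 29.47 and 100.5, and the fibrillar chain Col5a2 at 39.55 and 39.94.

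Schwann-like cells, the glia that wrap nerve fibers, had a collagen total near that of fibroblast-like cells under the main class rule, and another make-up. Col3a1 reached 1872 CPM (interval 1605 to 2170) at 0 h and 1763 (1430 to 2151) at 6 h, both above the fibroblast-like level. Col18a1 stood at 712.5 and 981.4 CPM, Col4a1 at 659.3 and 708.8, Col1a2 at 489.2 and 472.5, and Col1a1 at 457.3 and 345.3. The FACIT chain Col16a1 stood at 319.0 and 436.2 CPM, against 39.78 and 24.85 in fibroblast-like cells. The 8 fibroblast markers summed to 212.7 and 109.0 CPM in Schwann-like cells against 20360 and 14170 in fibroblast-like cells, and no endothelial marker had a UMI in them. With 12 cells at 6 h, no call of a change between the matrices was made for them. These cells were shallow, with a median of 1534.5 UMIs at 0 h, and the collagen sums rest on 650 and 366 UMIs.

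The class in which each member was highest, by its mean CPM over both matrices and leaving out the mesothelial-like cells, was fibroblast-like for 16 of the 33 members with at least 20 UMIs, where 11.9% of all genes with that many UMIs were highest. It was Schwann-like for 10 members (22.8% of all genes), pericyte-like for 3 (24.5%), smooth muscle-like for 2 (10.2%), endothelial-like for 2 (13.3%) and leukocyte-like for none (17.3%). The members highest outside fibroblasts with 20 or more UMIs in that class were, in Schwann-like cells, Col3a1, Col5a1, Col5a3, Col16a1 and Col18a1. In pericyte-like cells they were Col4a2 and Col4a4. In Schwann-like cells, Col7a1, Col9a3, Col12a1, Col20a1 and Col27a1 rested on 3, 7, 11, 12 and 19 UMIs. The pericyte-like place of Col25a1 rested on 13 UMIs. The smooth muscle-like members Col4a6 and Col11a2 rested on 15 and 2 UMIs in that class. The endothelial-like members Col23a1 and Col17a1 likewise rested on 15 and 2. These counts are from the main class rule alone, and the Schwann-like collagen total was far lower with classes from scaled scores. For Col4a4 and Col4a1 the order is close, since Col4a4 had a mean of 65.70 CPM in pericyte-like and 60.67 in fibroblast-like cells and Col4a1 had 1259 in fibroblast-like and 1228 in pericyte-like cells.

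Several members had low UMI counts. Col20a1 had 9 UMIs in 44 Schwann-like cells at 0 h (95.71 CPM) against 1.640 CPM in fibroblast-like cells, and Col9a3, a FACIT chain of type IX collagen, had 5 UMIs there (53.17 CPM) against 0.4231 CPM. Neither was limited to these classes, since leukocyte-like cells held 8 and 37 UMIs of Col20a1 and 29 and 20 of Col9a3, all at levels under 1 CPM. The transmembrane chain Col13a1 had 16 UMIs in endothelial-like cells over both matrices and 1 in fibroblast-like cells. Col25a1, another transmembrane chain, had 13 UMIs in pericyte-like cells. The basement membrane chains Col4a5 and Col4a6 were found in fibroblast-like cells (49.77 and 7.299 CPM at 0 h) and smooth muscle-like cells (44.52 and 15.20 CPM) with 2 UMIs of Col4a5 and none of Col4a6 in pericyte-like cells at 0 h. Col26a1 had 115 UMIs in fibroblast-like cells and 1 in pericyte-like cells over both matrices. Col11a1, Col6a5, Col22a1, Col13a1 and Col28a1 stayed below 20 UMIs in the 6 classes compared.

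Chains that pair in 1 molecule did not keep 1 ratio across cell classes. In fibroblast-like cells the ratio of Col1a1 to Col1a2 UMIs was 0.724 (0.711 to 0.737) at 0 h and 0.687 (0.671 to 0.703) at 6 h. In smooth muscle-like cells it was 0.20 (0.134 to 0.290) and 0.0894 (0.0435 to 0.166), below the fibroblast interval in both matrices. In pericyte-like cells it was 0.270 (0.210 to 0.343) at 0 h and 0.700 (0.416 to 1.16) at 6 h, where the wide interval includes the fibroblast value. Col4a1 exceeded Col4a2 3.02-fold (2.93 to 3.11) and 2.70-fold (2.65 to 2.75) in fibroblast-like cells, but 1.95-fold and 1.72-fold in endothelial-like, 1.63-fold and 1.74-fold in pericyte-like and 1.44-fold and 1.65-fold in smooth muscle-like cells. Within type VI collagen, Col6a1 to Col6a2 was 1.22 at 0 h and 1.59 at 6 h in fibroblast-like cells, and Col6a3 to Col6a1 was 0.463 and 0.617. Type I collagen is known to hold more of the Col1a1 than of the Col1a2 chain, and UMIs do not measure protein.

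Fibroblast-like cells at 6 h gave a smaller share of their UMIs to most collagens and a larger share to the type IV pair Col4a1 and Col4a2. These are shares and not amounts per cell, since 3416 cells at 0 h held 169144 collagen UMIs and 1520 cells at 6 h held 160049. Of the 38 members, 29 had at least 20 UMIs over both matrices in these cells, and 1 was at least 2-fold higher and 9 at least 2-fold lower at 6 h, where 10.6% of the 12987 genes measured were higher and 16.8% lower by that much. The members' median log2 ratio of 6 h over 0 h was -0.85, against -0.10 for all genes, and 23 of the 29 lay below 0. Collagen RNA as a whole was at a log2 ratio of -0.33 (-0.34 to -0.32).

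Among the fibrillar chains, Col1a1 had a log2 ratio of -0.98 (-1.01 to -0.95), Col1a2 of -0.90 and Col3a1 of -0.70. Among the type V collagen chains, Col5a1 and Col5a3 had -0.85 and -0.88. Col5a2, another type V chain, went the other way, from 218.4 to 333.6 CPM, a log2 ratio of 0.61 (0.56 to 0.67). Its gene lies next to Col3a1 on chromosome 1. The fibrillar family as a whole had -0.73. The multiplexin Col15a1 had -1.41 (-1.45 to -1.37), the beaded filament chain Col6a2 went from 579.5 to 289.4 CPM, just past 2-fold lower, and Col6a1 and Col6a3 had -0.62 and -0.21.

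The basement membrane family split. Col4a2 went from 286.0 to 612.6 CPM, a log2 ratio of 1.10 (1.05 to 1.14), and Col4a1 reached 0.94 (0.91 to 0.97). Col4a4 went from 92.09 to 29.26 CPM (-1.65), Col4a6 from 7.299 to 2.226 (-1.71), Col4a5 from 49.77 to 26.32 (-0.92) and Col4a3 from 28.09 to 17.81 (-0.66), all of them lower at 6 h with intervals that exclude 0. In cells of 3000 to 10000 UMIs, a range chosen after seeing the data, Col4a5 had -0.31 and Col4a3 -0.39 (-0.83 to 0.03), and with at most 2500 genes Col4a6 had -0.93 (-3.23 to 0.66). Because Col4a1 and Col4a2 carry most of its UMIs, the family as a whole stood at 1326 CPM at 0 h and 2342 at 6 h. The gene pairs Col4a3 and Col4a4, which lie head to head on chromosome 1 at a distance of 71 bases, and Col4a5 and Col4a6, on chromosome X, thus moved opposite to the pair on chromosome 8.

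Smaller members moved both ways. The members with the largest log2 ratios below 0 were Col9a2 at -1.92 (51 UMIs at 0 h, 16 at 6 h), Col4a6, and Col8a2 at -1.71 (33 and 12 UMIs), and the largest above 0 were Col4a2, Col4a1 and the network chain Col8a1 at 0.82 (282.3 and 498.6 CPM). Col6a6 had -1.49, the FACIT chain Col14a1 -1.04 (116.6 and 56.55 CPM), and the transmembrane chain Col23a1, with 23 and 13 UMIs, -1.07. The ratio of Col9a2 was 0.02 (-3.09 to 1.98) with cells of at most 2500 genes. The 9 members past 2-fold lower were thus Col9a2, Col4a6, Col8a2, Col4a4, Col6a6, Col15a1, Col23a1, Col14a1 and Col6a2. Col20a1 (-0.88), Col26a1 (-0.78), Col18a1 (-0.70), Col16a1 (-0.68) and Col27a1 (-0.59) lay below 0 without reaching it, all with intervals that exclude 0. Col12a1, a FACIT chain, had 0.55, and Col7a1 had 0.05 with an interval from -1.10 to 1.23. Col9a3, Col11a1, Col11a2, Col13a1, Col17a1, Col22a1, Col25a1, Col28a1 and Col6a5 had too few UMIs in these cells for a ratio.

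**Figure D2:**
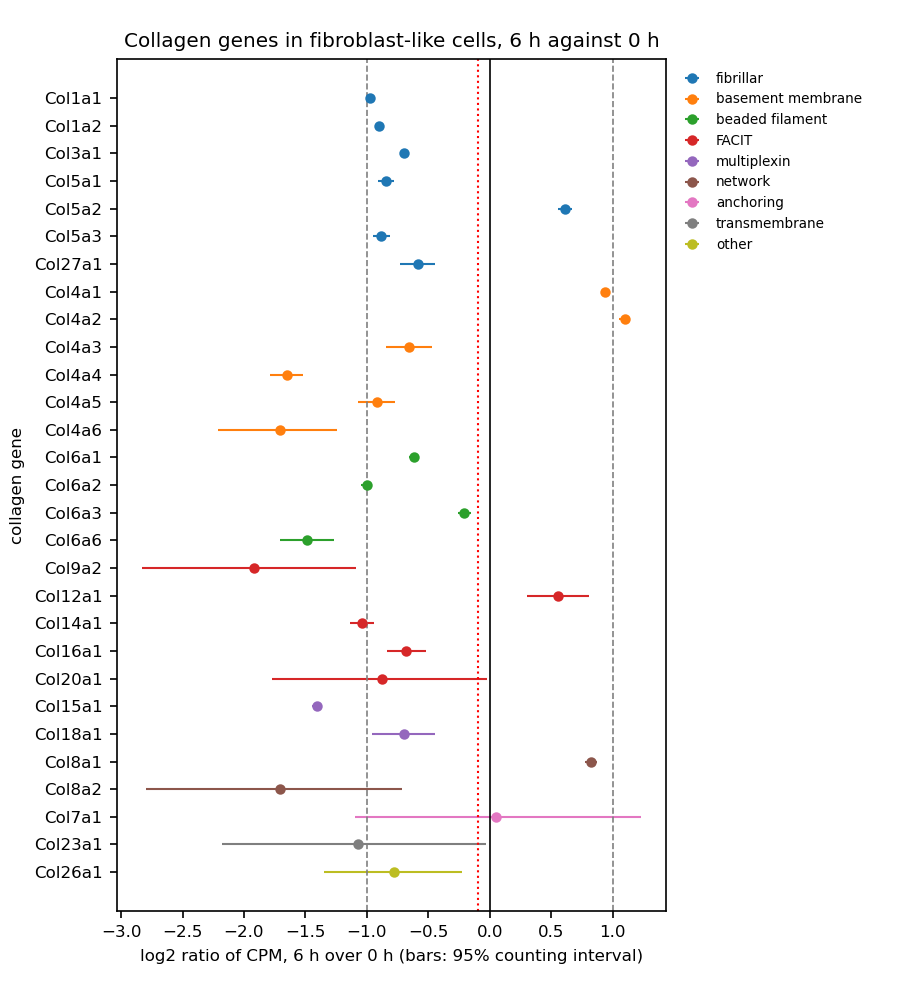
Log2 ratio of CPM, 6 h over 0 h, of the 29 collagen genes with at least 20 UMIs in fibroblast-like cells, with 95% counting intervals, colored by family. Dashed grey lines mark a 2-fold difference and the dotted red line the median of all genes at -0.10, and 23 of the 29 points lie left of 0.

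Depth moved with the condition in these cells, so the main members were set side by side in cells of like depth. Between 1000 and 3000 UMIs, all members together had 8804 CPM (8517 to 9097) at 0 h and 9140 (8518 to 9795) at 6 h. They were lower at 6 h in the deeper bands found in both matrices, with 8719 and 6891 CPM between 3000 and 6000 UMIs. Between 3000 and 6000 UMIs, in 2155 cells at 0 h and 84 at 6 h, Col1a1 stood at 1030 and 560.7 CPM, Col15a1 at 848.6 and 257.2, and Col4a1 at 888.4 and 1726. Between 12000 and 24000 UMIs, in 60 and 812 cells, Col1a1 stood at 991.7 and 495.7 CPM, Col15a1 at 739.2 and 287.8, and Col4a1 at 804.7 and 1711. Col15a1 was lower and Col4a1 higher at 6 h in each of the 4 depth bands without overlap of their intervals, and Col1a1 in all but the shallowest band, where 41 cells at 6 h gave 957.3 CPM (763.6 to 1185) against 1055 (957.0 to 1159). Col8a1 had its highest level in the deepest of the 4 bands in both matrices (370.2 and 533.7 CPM), and between 6000 and 12000 UMIs it stood at 316.1 CPM at 0 h and 308.9 at 6 h. It was higher at 6 h between 3000 and 6000 UMIs, at 253.3 (243.7 to 263.3) and 344.7 CPM (288.8 to 408.2). Between 1000 and 3000 UMIs Col8a1 stood at 216.8 (173.9 to 267.1) and 353.3 (240.0 to 501.5), with intervals that overlap. Its log2 ratio was 0.05 with cells of at most 2500 genes and 0.05 with cells of 3000 to 10000 UMIs, and that of Col12a1 was -0.30 and -0.26, so the ratio of both moved with the depth of the cells taken. The limit of 3000 to 10000 UMIs was chosen after seeing the data. In it Col15a1 had -0.93 and Col14a1 -0.65, both short of 2-fold, and Col4a1 had 0.92 and Col4a2 1.20.

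**Figure D3:**
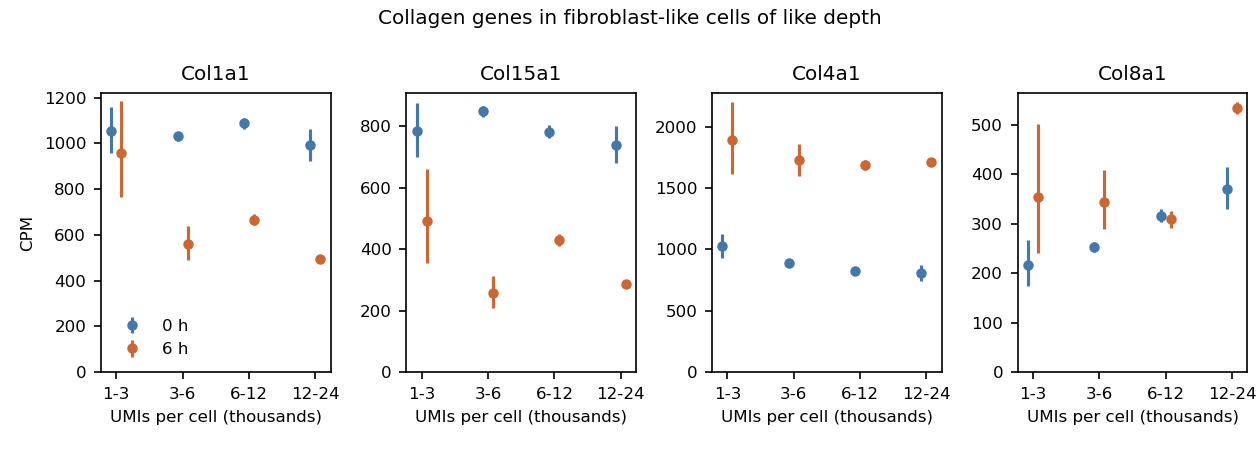
Level in CPM of Col1a1, Col15a1, Col4a1 and Col8a1 in fibroblast-like cells, pooled within 4 bands of UMIs per cell, for the 0 h (blue) and 6 h (orange) matrices, with 95% counting intervals. Col4a1 lies at 1687 CPM or more at 6 h and at 1025 or less at 0 h in each band. The intervals of Col8a1 overlap at 1000 to 3000 and at 6000 to 12000 UMIs.

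Other values of fibroblast-like cells moved with the matrix as well, and their part in these ratios was not tested. The 8 fibroblast markers went from 20360 to 14170 CPM. The immediate-early genes Fos, Jun, Egr1, Atf3, Fosb and Ier2 together went from 13820 to 5081 CPM. Leukocyte markers went from 157.0 to 106.6 CPM and cardiomyocyte genes from 84.58 to 30.99 CPM. With cells of at most 2500 genes the members' median log2 ratio was -0.64. With cells of 3000 to 10000 UMIs (3052 at 0 h and 315 at 6 h) it was -0.45, and 5 in place of 9 members were at least 2-fold lower.

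In pericyte-like cells, 16 members had 20 UMIs, of which 2 were at least 2-fold higher and 3 lower at 6 h (8.34% and 10.2% of 8223 genes), with a median log2 ratio of 0.34 against 0.01 for all genes. The higher ones were Col6a3, from 44.12 to 115.3 CPM (1.39, interval 0.80 to 1.97), and Col5a3, from 191.5 to 396.5 (1.05, 0.76 to 1.34), and the next was Col5a2, from 72.43 to 124.5 (0.78, 0.26 to 1.29). With classes from scaled scores neither was past 2-fold (Col6a3 0.54, Col5a3 0.91), and Col5a3 also fell just short with at most 2500 genes (0.98), a mitochondrial limit of 10% (0.93), the stricter class rule (0.96) and median-ratio scaling (0.93). The lower ones were Col1a2, from 265.6 to 92.21 CPM (-1.53), Col15a1, from 56.61 to 23.05 (-1.30), and Col3a1 (-1.19). The fibroblast markers in these cells went from 802.6 to 219.0 CPM, and their part in the lower Col1a2 and Col3a1 was not tested. Col4a1 and Col4a2 had log2 ratios of 0.59 and 0.50, both with intervals above 0.

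In endothelial-like cells, 12 members had 20 UMIs, of which 2 were at least 2-fold higher and 3 lower (7.99% and 9.38% of 8357 genes), with a median of -0.03 against -0.02 for all genes. With classes from scaled scores none was higher and 13 were lower, with a median of -1.42. The higher ones were Col15a1, from 29.47 to 100.5 CPM (1.77, 1.20 to 2.36), and Col4a2, from 421.8 to 852.1 (1.01, 0.85 to 1.18), and Col4a1 had 0.83 (0.71 to 0.95). Col4a4 had 0.85 on 19 and 22 UMIs, with an interval that includes 0. The lower ones were Col3a1 (-1.85, from 45 UMIs to 8), Col8a1 (-1.36, from 60 UMIs to 15) and Col6a1 (-1.17, from 21 UMIs to 6, with an interval that includes 0). Col15a1 was at least 2-fold higher in most settings, but its log2 ratio was 0.89 with cells of at most 2500 genes and 0.16 with classes from scaled scores.

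In smooth muscle-like cells, 12 members had 20 UMIs, and none was at least 2-fold higher and 5 were lower (10.8% and 10.3% of 6881 genes), with a median of -0.60 against 0.03. Col14a1 went from 22 UMIs to 1 (-4.01, -9.38 to -1.38), Col3a1 from 81 to 12 (-2.31) and Col27a1 from 19 to 5 (-1.48). Col4a5 (-1.21) and Col1a1 (-1.18) were the other 2 past 2-fold, while Col18a1 (0.59), Col4a1 (0.55) and Col5a2 (0.66, from 13 UMIs to 15, with an interval that includes 0) had the largest ratios above 0. These values rest on 208 and 72 cells. With classes from scaled scores the median was 0.48, and Col3a1 and Col1a1 had log2 ratios of 1.52 and 0.78. Col18a1 had -0.17 with those classes, -1.34 with at most 2500 genes and -1.36 in cells of 3000 to 10000 UMIs. Fibroblast markers in these cells went from 296.5 to 84.46 CPM, and their part was not tested.

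**Figure D4:**
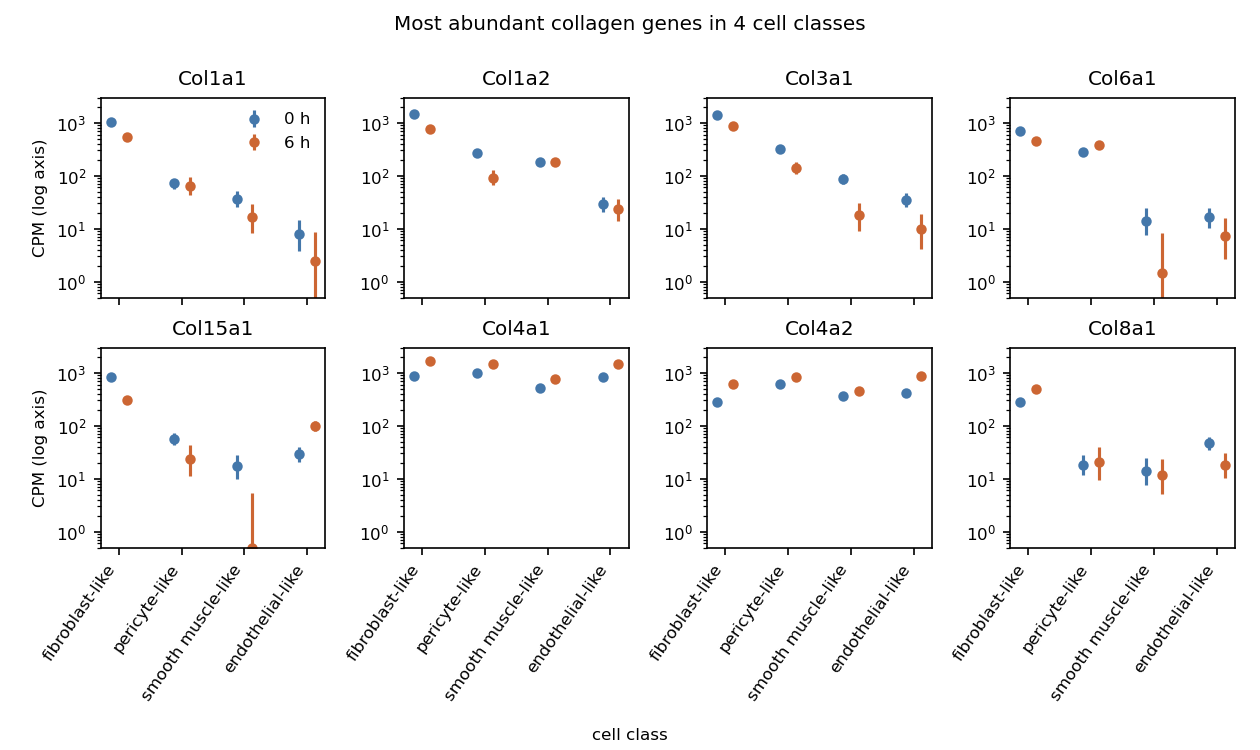
Level in CPM (log axis) of 8 abundant collagen genes in 4 cell classes at 0 h (blue) and 6 h (orange), with 95% counting intervals; a value of 0 is drawn at the foot of the axis. Col4a1 and Col4a2 lie higher at 6 h in all 4 classes, and Col15a1 lies lower in fibroblast-like and pericyte-like cells and higher in endothelial-like cells.

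Genes that fold, join and bind collagen were followed in fibroblast-like cells from lists of 47 genes, of which 46 had 20 UMIs. Of these, 3 were at least 2-fold higher and 8 lower at 6 h, read against the same 10.6% and 16.8% of all genes. The median log2 ratio was -0.65 for 21 folding and secretion genes, -0.46 for 16 assembly and crosslinking genes and -0.12 for 9 receptors. Lox, the lysyl oxidase that crosslinks collagen, went from 28.83 to 151.7 CPM (2.40, 2.26 to 2.53), with 545 and 3407 UMIs. Loxl4, of the same family, went from 4 UMIs to 43 (3.18), and P4ha3, a subunit of prolyl 4-hydroxylase, from 4 to 33 (2.80).

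On the lower side, Serpinh1, the collagen chaperone of the endoplasmic reticulum, went from 1465 to 590.1 CPM (-1.31, -1.34 to -1.28), and Pcolce, which enhances the cleavage of procollagen, from 892.0 to 372.0 (-1.26). The largest ratios below 0 were those of Fmod, a proteoglycan that binds fibrils (-3.17, from 38 UMIs to 5), the collagen receptor Itga11 (-2.15, from 490 to 131) and Lair1 (-1.90, from 44 to 14), a receptor known from leukocytes. Ddr2, the discoidin domain receptor that binds fibrillar collagen, went from 157.1 to 271.7 CPM (0.79). In cells of 3000 to 10000 UMIs, 1 gene of the lists was at least 2-fold higher and 3 lower.

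Seen cell by cell, collagen RNA was in nearly all fibroblast-like cells, but single chains were not. After each cell was thinned to 2000 UMIs, which left out 103 fibroblast-like cells at 0 h and 20 at 6 h, 3312 of 3313 and 1494 of 1500 had a collagen UMI. Col4a1 was found in 75.2% (73.7 to 76.7) at 0 h and 88.2% (86.5 to 89.8) at 6 h, and in 92.7% and 99.1% before thinning. Col1a1 was found in 82.3% and 57.7%, Col3a1 in 82.3% and 59.3%, Col15a1 in 71.5% and 40.1% and Col8a1 in 33.8% and 46.8%. In B cell-like cells, which are not known to make collagen, and whose median depth was 2646 UMIs at 0 h, Col4a1 was found in 2.39% at 0 h and 2.55% at 6 h and Col1a1 in 1.44% and 0.751% after the same thinning, which is taken as background. Neutrophil-like cells had Col4a1 in 4.58% and 3.60%, with intervals that overlap those of B cell-like cells. In summed UMIs at 6 h, neutrophil-like cells stood above B cell-like cells, at 46.06 CPM (42.93 to 49.36) against 25.50 (20.12 to 31.87). At 0 h the summed values were 17.81 (11.02 to 27.22) and 14.04 (11.08 to 17.54), with overlap.

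Thinning left 217 of 597 pericyte-like cells at 0 h and 86 of 103 at 6 h. They had Col4a1 in 84.3% and 88.4% and Col1a1 in 7.37% and 8.14%, and endothelial-like cells had Col4a1 in 63.1% and 78.7% and Col1a1 in 1.78% and 1.06%. The endothelial share of Col1a1 thus lay within the intervals of the B cell-like share in both matrices, and the pericyte-like share lay above them. The endothelial share rests on 4 of 225 and 1 of 94 cells, with intervals of 0.486 to 4.49 and 0.0269 to 5.79. Fibroblast markers at 0 h stood at 802.6 CPM in pericyte-like and 139.4 CPM in B cell-like cells, and their part was not tested. Over thinned fibroblast-like cells, Spearman's rho across cells was 0.24 at 0 h and 0.40 at 6 h for Col1a1 with Col3a1 and 0.20 and 0.31 for Col4a1 with Col4a2, but 0.13 and 0.13 for Col4a1 with Col1a1. These are descriptions over 3313 and 1500 cells that share a library and a depth, at means of 1.16 to 3.30 UMIs per cell for Col1a1, Col3a1 and Col4a1, and no finding is drawn from them.

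Fibroblast-like cells with at least 2 UMIs of Pi16, Dpp4, Sema3c, Cd248 and Ackr3, genes known from fibroblasts of the outer vessel wall, were compared with those that had none. These genes were widespread here, with 2701 positive and 426 negative cells at 0 h and 1256 and 163 at 6 h, and positive cells were deeper (5462 against 4216.5 UMIs, and 14446 against 10227). At 0 h, 3 of 28 members were at least 2-fold higher in positive cells and 2 lower, against 5.09% and 3.14% of all genes. At 6 h, 2 of 25 were higher and 2 lower, against 6.25% and 3.47%. Total collagen was near equal, at 8886 and 9139 CPM at 0 h and 7101 and 7502 at 6 h.

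The 4 members past 2-fold at 6 h were also past it, in the same direction, at 0 h. Col14a1 was higher in positive cells, with 127.6 against 58.78 CPM at 0 h (1.12, 0.83 to 1.42) and 61.53 against 16.80 at 6 h (1.87, 1.33 to 2.47). Col4a3 was higher too, with 30.79 against 10.17 CPM (1.60) and 18.91 against 8.399 (1.17). Col6a6 was lower, with 26.22 against 53.13 CPM (-1.02) and 8.412 against 34.79 (-2.05), but its 6 h ratio was 0.29 with cells of at most 2500 genes. Col26a1 was lower too (-1.45 and -1.64, on 15 and 9 UMIs in negative cells). The other 0 h member past 2-fold, Col23a1, had 22 UMIs against 1. Col4a1 and Col4a2 were lower in positive cells at both times, Col4a1 by log2 ratios of -0.42 and -0.47. When a UMI of Pi16 or Dpp4 alone set the groups, Col14a1 had 0.92 and 1.40 and Col4a3 0.82 and 1.45.

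Leukocyte-like cells held few collagen UMIs. Over the members with 100 UMIs in fibroblast-like cells, the median log2 ratio of macrophage-like over fibroblast-like CPM was -6.60 at 0 h (23 members) and -6.52 at 6 h (22 members), that of B cell-like cells -6.25 and -6.17 and that of neutrophil-like cells -5.63 and -5.46. After thinning, 16.9% of macrophage-like and 14.6% of B cell-like cells at 0 h had any collagen UMI, and 13.6% and 15.3% at 6 h. Between the matrices, which are the same libraries as for fibroblasts, leukocyte-like cells had Col4a1 at 13.20 and 38.73 CPM (1.55), Col3a1 at 16.18 and 9.617, Col4a2 at 8.528 and 16.75, Col1a2 at 11.22 and 7.794, and Col14a1 at 18.84 and 4.677 (-2.01). The matrices held 3512 and 1118 macrophage-like cells, and neutrophil-like cells went from 322 to 2867, and their part in these values was not tested.

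Col14a1 stood nearer to its fibroblast level in macrophage-like cells than the median member did. It was at 28.87 CPM at 0 h and 14.21 at 6 h there, a log2 ratio to fibroblast-like cells of -2.01 (-2.15 to -1.88) and -1.99 (-2.23 to -1.76). In B cell-like cells it stood at 1.641 and 0.3312 CPM. No UMI of it was found in 153 thinned neutrophil-like cells at 0 h, which allows a share of up to 2.38%. A Col14a1 UMI was in 5.74% (4.98 to 6.57) of thinned macrophage-like cells at 0 h and 2.79% (1.89 to 3.95) at 6 h. Among thinned B cell-like cells the share was 0.478% (0.131 to 1.22) at 0 h. At 6 h it was 0 of 666, which allows up to 0.552%. The macrophage-like cells with a Col14a1 UMI numbered 443 at 0 h, with 205 CPM of other collagens and 372 CPM of fibroblast markers against 84.1 and 106 CPM in those without it. At 6 h they numbered 133, with 108 and 128 CPM against 88 and 115. How far fibroblast RNA in these droplets adds to it was not tested.

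Col27a1, a fibrillar chain, stood at 6.844 CPM in macrophage-like and 7.473 in B cell-like cells at 0 h, log2 ratios to fibroblast-like cells of -2.80 and -2.67, and at 2.205 and 5.630 CPM at 6 h. Its thinned shares of 1.27% and 1.44% at 0 h had overlapping intervals in these classes. Col18a1 had 14 UMIs in macrophage-like cells at 0 h and 18 at 6 h. The log2 ratios of Col18a1 to fibroblast-like cells were -4.45 (-5.34 to -3.68) and -2.72 (-3.50 to -2.02). Of members at low level in fibroblasts, Col9a3 had 22 UMIs in macrophage-like and 8 in fibroblast-like cells at 0 h (log2 ratio 1.42, 0.20 to 2.80), and Col11a2 had 33 UMIs in neutrophil-like and 9 in fibroblast-like cells at 6 h (2.24, 1.15 to 3.49).

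**Figure D5:**
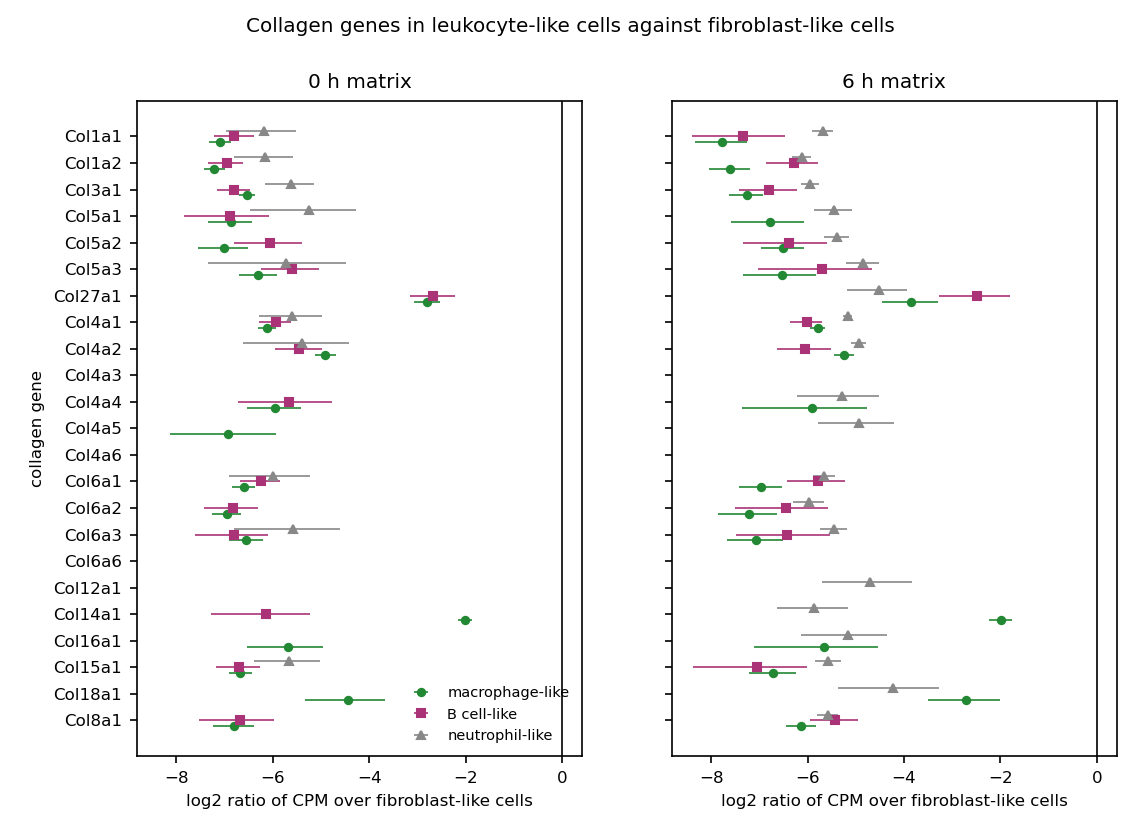
Log2 ratio of CPM in macrophage-like, B cell-like and neutrophil-like cells over fibroblast-like cells, for members with at least 100 fibroblast and 5 leukocyte UMIs, with 95% counting intervals, in the 0 h (left) and 6 h (right) matrix. The median member lies at -6.60 and -6.52 in macrophage-like cells, and Col14a1 lies at -2.01 and -1.99.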

How the data were processed

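Per the labels and the study's methods, the authors aligned reads from a 3′ v2 droplet kit to mm10 using Cell Ranger (3.1.0 in the matrix headers). The deposited values are raw counts of UMIs for each gene in each barcode, without any normalization. Barcodes with at least 200 genes and at most 30% mitochondrial UMIs were kept, with no upper limit on genes. No doublet caller was run. The lead of 2 markers leaves some mixed cells without a class, but 100 fibroblast-like cells at 0 h and 125 at 6 h held 3 or more leukocyte markers. UMIs were summed per class and matrix and divided by the class total (CPM). Genes with 20 UMIs over both matrices were compared, in classes with at least 20 cells in each, and a count of 0 was set to 3 UMIs. Intervals are exact (Poisson, conditional binomial, Clopper-Pearson). A 2-fold ratio was the limit for a call, since 1 library per condition allows no test. For each class the genes named are its 5 most abundant members and the 3 largest ratios each way, pathway genes likewise in fibroblasts, and members highest in another class with 20 UMIs there. Other members were named, after their values were seen, to complete a family or where they departed from the rest. Members, markers and gene lists were chosen with earlier results of these data known. Coordinates are from GENCODE M21, and Python 3.11.15, numpy 2.4.6, scipy 1.17.1, pandas 2.3.3 and matplotlib 3.10.9 were used. The ratio calculation was tested on simulated counts with known folds and counting error alone, which hold no variation between hearts or libraries.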

Additional observations from a re-analysis of the deposited data

Results flagged for a closer look

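Col15a1, the multiplexin at the border of basement membrane and fibrils, moved past 2-fold in opposite directions in different classes, with log2 ratios of 6 h over 0 h of -1.41 in fibroblast-like cells, -1.30 in pericyte-like cells and 1.77 in endothelial-like cells. Each value is 1 library against 1 library, the difference between classes was not tested, and the endothelial value rests on 38 and 83 UMIs. The fibroblast-like ratio was -0.93 in cells of 3000 to 10000 UMIs, and the endothelial-like ratio was 0.89 with at most 2500 genes per cell and 0.16 with classes from scaled scores, all short of 2-fold.

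The cells given no class, which enter no comparison, had 3963 collagen CPM at 0 h and 4290 at 6 h, between the leukocyte-like level of 125.9 and 133.4 CPM and the fibroblast-like level of 8946 and 7127. Of these 716 and 473 cells, 228 and 150 held at least 3 markers of fibroblasts and 3 of leukocytes.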

How the results depend on the processing

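No paired analysis was possible because each condition is 1 matrix with no map from barcodes to samples, and no sample could be left out for the same reason. Of the members' ratios between the matrices, classes from scaled scores turned the sign of 12 of 69, cells of 3000 to 10000 UMIs 7 of 60, the 2500-gene limit 4 of 59 and thinning 1 of 49. The 2-fold calls held less often. Of the ratios past 2-fold in the main setting, 14 of 25 stayed past it with the scores and 16 of 22 in cells of 3000 to 10000 UMIs. With the 2500-gene limit 12 of 22 stayed past it, and with thinning 13 of 17. In fibroblast-like cells, Col4a2 (1.09 to 1.20), Col4a1 (0.85 to 1.01), Col1a1 (-1.11 to -0.72) and Col15a1 (-1.52 to -0.93) kept their direction in all 8 alternatives. Collagen CPM of fibroblast-like cells at 0 h was 9028 with a stricter class rule, 8711 with classes from scaled scores and 9266 without mitochondrial, hemoglobin and cardiomyocyte genes. At 6 h it was 6845 with the stricter rule, 7471 without those genes and 6313 with at most 2500 genes per cell. With the stricter rule, pericyte-like cells had 3883 CPM at 6 h, smooth muscle-like cells 2210 and 3335, endothelial-like cells 1833 and 2841, Schwann-like cells 10000 at 6 h and leukocyte-like cells 80.7 and 62.5. With the scores these were 3635 and 3614 (pericyte), 2046 and 3493 (smooth muscle), 1869 and 2194 (endothelial), 562 and 501 (Schwann) and 95.6 and 65.5 (leukocyte). The 2500-gene limit gave 1382 (smooth muscle), 2531 (endothelial) and 7464 (Schwann) at 6 h and 94.6 and 80.4 in leukocyte-like cells. The 10% mitochondrial limit gave 1285 in endothelial-like cells at 0 h, and 2067 (smooth muscle) and 5107 (Schwann) at 6 h.

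With at most 2500 genes, 2 members were past 2-fold higher in fibroblast-like cells, the median was -0.636, and 1 pathway gene was higher. Col9a2 turned to 0.0162, and Col6a6 in Pi16/Dpp4 positive cells at 6 h to 0.287. That limit left 1 member higher in pericyte-like cells, 3 lower in smooth muscle-like cells and 1 higher in endothelial-like cells. It gave 0.816 for Col1a1 to Col1a2 and 2.46 for Col4a1 to Col4a2 at 6 h. In the Pi16/Dpp4 comparison it gave 1 lower at 0 h and 4 higher and 0 lower at 6 h. Median-ratio scaling gave 2 higher members in fibroblast-like cells and 1 each in pericyte-like and endothelial-like cells. A minimum of 1 UMI put the fibroblast median at -0.700, the smooth muscle count lower at 11 and the endothelial counts at 4 higher and 8 lower, and a minimum of 10 UMIs gave 10 and 7 lower in those classes. Thinning to 2000 UMIs put the fibroblast median at -0.681, with 1 pathway gene higher, 1 smooth muscle member lower, and 1 endothelial member higher and 1 lower.

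Cells of 3000 to 10000 UMIs, an alternative chosen after seeing the data, gave 5 members lower in fibroblast-like cells, a median of -0.448, 1 pathway gene higher and 3 lower, and 5 higher and 5 lower members in pericyte-like cells. A mitochondrial limit of 10% gave 1 higher in pericyte-like and 4 higher in endothelial-like cells, and 1 lower in the Pi16/Dpp4 comparison at 0 h. A UMI of Pi16 or Dpp4 alone, also chosen after seeing the data, gave 1 higher and 0 lower at 0 h. The stricter class rule gave 1 higher and 1 lower in endothelial-like cells.

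Classes from scaled scores gave 0 higher and 6 lower in pericyte-like cells, 5 higher and 2 lower in smooth muscle-like cells (median 0.475, Col3a1 1.52, Col1a1 0.782) and 0 higher and 13 lower in endothelial-like cells (median -1.42). The leukocyte-like median against fibroblast-like cells was -7.07, -7.36 and -6.87 at 0 h and -6.55, -6.96 and -6.81 at 6 h with the 2500-gene limit, the stricter rule and the scores. The share of fibroblast-like cells with Col4a1 was 52.9% and 74.2% when thinned to 1000 UMIs and 92.7% and 99.1% without thinning, and at 6 h 85.8%, 89.8% and 90% with the 2500-gene limit, the stricter rule and the scores. The share with Col1a1 was 61.6% and 38.6% when thinned to 1000 UMIs, 95.8% and 93% without thinning, 81% and 53% with the stricter rule, 79.9% at 0 h with the scores and 48.4% at 6 h with the 2500-gene limit. In B cell-like cells Col4a1 was in 1.02% in both matrices when thinned to 1000 UMIs, 4.17% at 6 h without thinning, 1.17% and 1.32% at 0 h with the 2500-gene limit and the stricter rule, and 0.521% and 5% with the scores, where Col1a1 was in 0.521% and 0%. The cause of these shifts was not tested. Smooth muscle-like cells gave no ratio under the stricter rule or the 10% limit, with fewer than 20 cells at 6 h.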
